A study of Rattus norvegicus with 16 samples.

Results

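CA2 is the narrow pyramidal field between CA1 and CA3 of the hippocampus. Its pyramidal cells are known for a weak capacity for synaptic potentiation, for dense perineuronal nets, which are coats of extracellular matrix around the cell body, and for a part in social memory, and they carry a distinct set of signalling and calcium-handling proteins. The genes described here had a higher RNA level in the CA2 pyramidal layer than in the other hippocampal layers sampled. A gene was taken when its mean in the 4 CA2 libraries was at least 3 CPM (a gene's counts scaled to a common library total) and at least 2 times its mean in each of CA1, CA3 and the dentate gyrus (DG). Sums for the CPM left out 2 identifiers that together took between 16.1% and 31.1% of the counts of a library. Of 32883 genes listed, 60 met these limits, and 3 of them (Amigo2, Cacng5 and Casr) were set aside by name, which left 57 CA2-enriched genes. The same limits turned to the other subfields gave 159 genes for CA1, 71 for CA3 and 659 for DG.

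The libraries came from 4 male Wistar rats aged 3 months, and no treatment is named. In DG the granule cell layer, and in CA1, CA2 and CA3 the layer of pyramidal cells, were cut from stained brain sections by laser capture microdissection. The libraries are labelled as 1 per subfield and replicate number, and the number was taken here to mark the rat. CA2 was recognised in the section by cells like those of CA3 in a tighter band, so its borders rest on shape and not on a marker. A bulk library of a layer holds every cell type in it, and a lower value from fewer cells of a type cannot be told apart from less RNA per cell. The totals ranged from 3216512 to 11933279 counts, and 3 counts, the upper limit that a count of 0 allows, were worth between 0.315 and 1.21 CPM. Such limits cover counting error only, since reads copied by PCR are not independent molecules. Replicates 2 and 4 of CA2 agreed within the sampling noise, which gives about 1 (chi-square per degree of freedom 1.001 over 12995 genes, chi-square test, p = 0.456). For replicates 2 and 4 of DG the value was 1.036, a small excess over that noise, from 13766 genes (p = 0.00176, chi-square test), against 2.80 to 43.5 for the other 22 pairs within a subfield. Each of these 2 pairs was therefore counted as 1 sample, so that n is 3 in CA2 and DG and 4 in CA1 and CA3.

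The CA2 values below chose the genes and are a description with no test. The ratio of the CA2 mean to the highest other mean had a median of 2.51 and ran from 2.002 to 8.71. It was at least 4 in 9 genes, between 3 and 4 in 10 and under 3 in 38. The highest other subfield was CA1 for 29 genes (median ratio 2.69), CA3 for 25 (median ratio 2.29) and DG for 3 (median ratio 2.11). For most of these genes the next highest level was thus in CA1 or CA3, which are both pyramidal. The same split was not computed over all genes, and the rule used these means, so nothing is read from it. The CA2 mean was under 10 CPM in 27 genes, from 10 to 100 CPM in 22 and at least 100 CPM in 8. In 47 of the 57 genes each CA2 library was above each of the 12 libraries of the other subfields, and in 10 the ranges overlapped. Over all 17172 genes so compared the share without overlap was 1.55%, and since the rule used this contrast nothing is read from the difference.

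**Figure D1:**
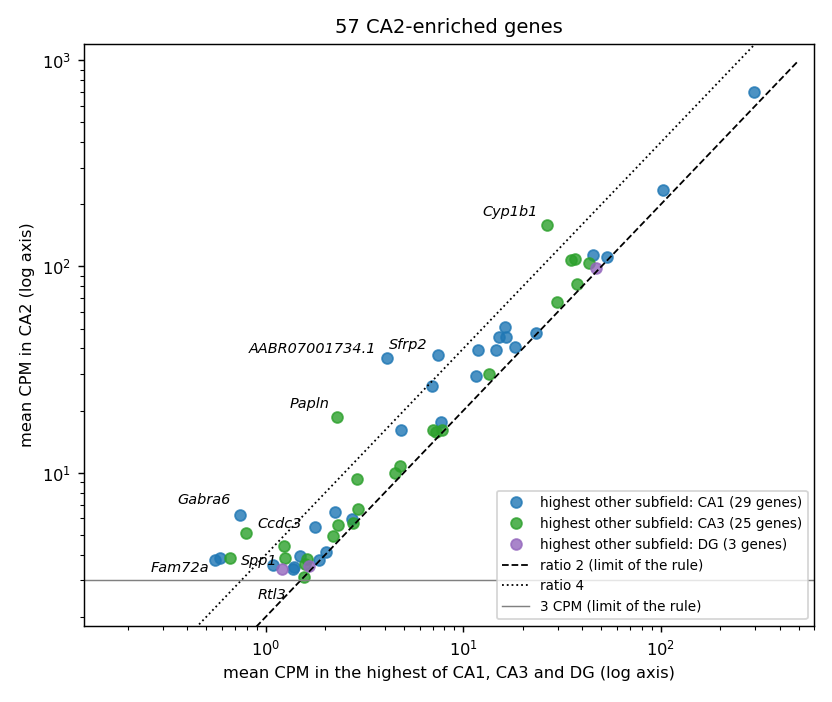
Mean CPM in CA2 (vertical, log axis) against the mean CPM in the highest of CA1, CA3 and DG (horizontal, log axis) for the 57 CA2-enriched genes, 1 point per gene, coloured by the subfield with that highest mean. The dashed and grey lines are the limits of the rule, and the 9 genes above the dotted line had a ratio of at least 4, from Sfrp2 at 5.01 to AABR07001734.1 at 8.71.

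Just inside the limits lay a gene with a ratio of 2.002 at 3.11 CPM and one with a ratio of 2.03 at 3.75 CPM. Just outside lay genes with ratios of 1.997 at 99.5 CPM and 1.97 at 13.9 CPM. On the side of the level, 3.11 and 3.42 CPM were inside, and 2.68 CPM (ratio 2.16) and Glra1, a glycine receptor subunit, at 2.46 CPM (ratio 7.04) were outside. Symbols were at hand for 9 of the 57 genes, all of them from the study's own list of 14 CA2 genes, which was chosen on these same samples. Of the other 5 genes of that list, 3 are those set aside by name, and Glra1 and Glipr2 (1.73 CPM, ratio 4.67) fell under 3 CPM. The other 48 genes are listed by identifier only and are described by their values. Genes outside the 57 could be matched only if the study listed them as possible markers of a subfield in these same samples.

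The receptor among the named genes was Gabra6 (ENSRNOG00000003569), the alpha6 subunit of GABA-A receptors, best known from cerebellar granule cells. It had 6.91, 7.40, 5.23 and 5.46 CPM in CA2 replicates 1 to 4. The values were 0.26, 1.53, 0.75 and 0.40 CPM in CA1 and 0.30, 0.10, 0.12 and 0.60 CPM in CA3, and DG held 1 count in all. Every CA2 library was thus above every other library, with means of 6.19 ± 0.866 CPM (SD, n = 3) in CA2 and 0.736 ± 0.565 CPM (SD, n = 4) in CA1. Among the genes of the same family that had a symbol, Gabrd, the delta subunit of receptors outside the synapse, had means over 4 columns of 8.81 CPM in CA2, 14.6 CPM in CA1, 5.14 CPM in CA3 and 91.1 CPM in DG. Glra1 had 1.15, 3.26, 2.24 and 3.18 CPM in CA2 and between 0 and 0.60 CPM in each library of the other subfields. Of 19 receptor subunits of the GABA-A and glycine families looked for, 3 could be matched, so the others were not analysed here.

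Of the genes for secreted and matrix proteins, Papln (ENSRNOG00000009448) encodes papilin, a glycoprotein of the extracellular matrix related to the ADAMTS proteases. It had 11.9, 23.4, 18.1 and 21.4 CPM in CA2. It had 1.19, 3.17, 3.43 and 1.21 CPM in CA1, 1.06, 2.10, 1.36 and 4.59 CPM in CA3, and 1.03, 0.84, 0.17 and 0.47 CPM in DG. The lowest CA2 library was thus above all 12 others, and the means were 17.5 ± 5.27 CPM (SD, n = 3) in CA2, 2.25 ± 1.22 CPM (SD, n = 4) in CA1, 2.28 ± 1.60 CPM (SD, n = 4) in CA3 and 0.618 ± 0.434 CPM (SD, n = 3) in DG. Spp1 (ENSRNOG00000043451) encodes osteopontin, a secreted phosphoprotein that binds integrins. It had 7.30 CPM in CA2 replicate 1 and 3.26, 2.62 and 2.27 CPM in replicates 2 to 4. CA1 had 0.40, 0.70, 0.15 and 0 CPM and CA3 0.76, 0.94, 0.74 and 0.20 CPM. No DG library held a count, so that its CA2 mean was at least 4.99-fold higher than in DG, taken against 3 counts in the shallowest DG library. The spread within CA2 was large, with replicate 1 far above the rest, and without that library Spp1 did not meet the rule.

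Sfrp2 (ENSRNOG00000009465) encodes a secreted protein that binds Wnt ligands and can block or modulate their signal. It had 44.5, 30.2, 44.5 and 30.03 CPM in CA2, 2.38, 10.2, 10.3 and 6.87 CPM in CA1, 1.67, 2.94, 1.86 and 4.39 CPM in CA3, and 0.52, 0.70, 0.33 and 0.71 CPM in DG. Its levels stepped down from CA2 over CA1 and CA3 to DG, with the CA1 range of 2.38 to 10.3 CPM reaching into that of CA3. It was the only gene of 12 secreted Wnt antagonists looked for that could be matched. Ccdc3 (ENSRNOG00000017933), which encodes a secreted coiled-coil protein described in fat and endothelium, had 3.07, 6.81, 5.85 and 4.55 CPM in CA2. All other libraries were between 0 and 1.26 CPM, and the values of CA1, CA3 and DG overlapped. Of 16 genes of perineuronal nets and matrix looked for, 3 could be matched, and the one besides Papln and Spp1, Tnc, which encodes the matrix protein tenascin-C, had means over 4 columns of 1.40 CPM in CA2 and 8.95 CPM in DG.

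Cyp1b1 (ENSRNOG00000040287) encodes a cytochrome P450 enzyme that oxidises oestrogens, retinoids and polycyclic hydrocarbons. It had 170, 133, 189 and 147 CPM in CA2. CA1 had 9.38, 38.1, 32.0 and 19.4 CPM, CA3 15.6, 31.3, 28.7 and 30.1 CPM, and DG 1.03, 1.26, 2.48 and 1.90 CPM. CA1 and CA3 thus overlapped, DG stood below both without overlap, and the lowest CA2 library was above the highest of the others. The means were 166 ± 24.7 CPM (SD, n = 3) in CA2, 24.7 ± 12.8 CPM (SD, n = 4) in CA1, 26.4 ± 7.29 CPM (SD, n = 4) in CA3 and 1.70 ± 0.730 CPM (SD, n = 3) in DG.

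Fam72a (ENSRNOG00000042747), whose protein binds the uracil-removing DNA repair enzyme UNG, had 4.03, 3.55, 3.98 and 3.87 CPM in CA2 and between 0 and 0.81 CPM elsewhere. Rtl3 (ENSRNOG00000002429), a gene derived from the gag part of a retrotransposon, had 4.22, 2.96, 3.86 and 3.18 CPM in CA2. Its CA1 values were 0.66, 0.23, 1.05 and 2.43 CPM, the last being the nearest that any library came to CA2 for this gene. AABR07001734.1 (ENSRNOG00000054834), a gene model named after a genomic clone, had 36.5, 33.5, 42.6 and 30.7 CPM in CA2. It had 0.92, 5.05, 6.42 and 4.04 CPM in CA1, 0.91, 1.05, 0.62 and 2.99 CPM in CA3, and 2 counts in all of DG, and it had the highest ratio of the 57 genes. Whether the reads were counted by strand is not given in the sources used here, so that a gene model of this kind may hold reads of an overlapping gene.

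**Figure D2:**
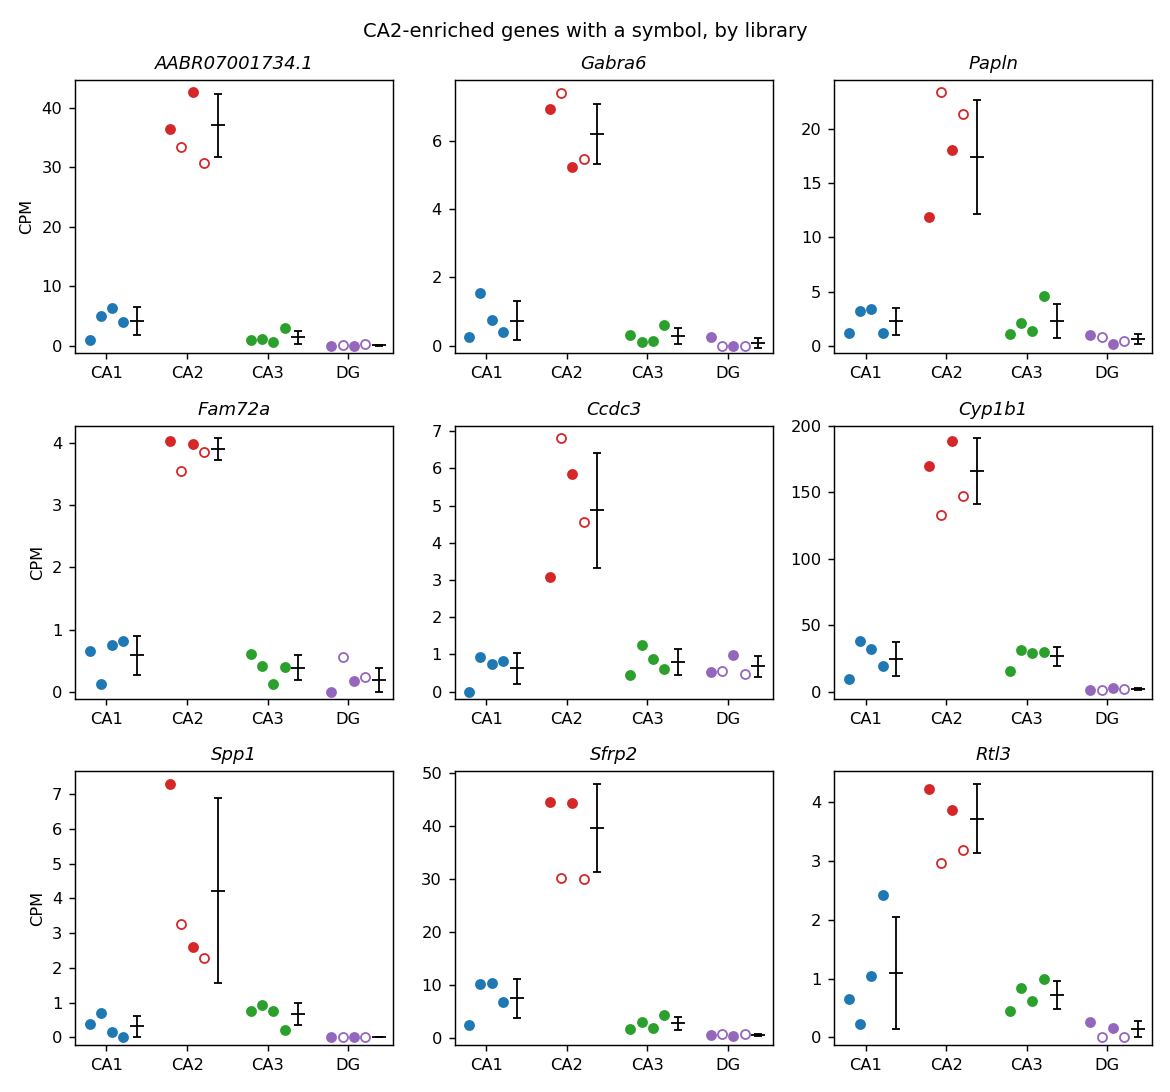
CPM (linear axes from 0) of the 9 CA2-enriched genes with a symbol in each library, in the order of replicates 1 to 4 within a subfield; open points are the repeated pairs of CA2 and of DG, and black marks are the mean ± SD with each pair as 1 sample. For all 9 genes the lowest CA2 point lies above every point of the other subfields, and Spp1 has 1 CA2 point at 7.30 CPM and the others at 3.26 CPM or less.

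Promoters of 7 of these 9 genes were matched by symbol in the RefSeq annotation of the rat genome build GRCr8, which is not the build of the counts. The 250 bases before the annotated start were searched on both strands for the core promoter box TATAAA, for the GC box, spelled GGGCGG, for the xenobiotic response element, spelled TNGCGTG and bound by the aryl hydrocarbon receptor, a known inducer of Cyp1b1, and for the cAMP response element, spelled TGACGTCA. A search finds letters and not sites in use. Cyp1b1 held a GC box on the opposite strand that begins 89 bases before the start and a xenobiotic response element that begins 22 bases before it, and Spp1 held TATAAA 204 bases before its start. Each of these 3 motifs was found in 1 of the 7 promoters, and in 32.4% (GC box), 4.26% (xenobiotic response element) and 13.1% (TATAAA) of 27457 promoters of the annotation. The cAMP response element was in 0 of the 7 and in 1.7% of all. The median GC content was 52.0% in the 7 and 52.0% in all. Printed 5′ to 3′ with these motifs in capitals are the 2 promoters that hold one and, for comparison, that of Sfrp2 and the first of 3 entries for Papln, which hold none. Cyp1b1 is at chr6:21094315-21094564 on the plus strand, Spp1 at chr14:5619805-5620054 on the minus strand, Sfrp2 at chr2:171387286-171387535 on the plus strand and Papln at chr6:109129018-109129267 on the plus strand.
Cyp1b1: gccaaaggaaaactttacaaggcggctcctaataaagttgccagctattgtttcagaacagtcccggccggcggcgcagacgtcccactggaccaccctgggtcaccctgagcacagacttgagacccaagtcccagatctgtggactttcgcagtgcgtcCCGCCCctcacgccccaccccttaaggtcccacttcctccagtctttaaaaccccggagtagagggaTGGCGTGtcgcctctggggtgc
Spp1: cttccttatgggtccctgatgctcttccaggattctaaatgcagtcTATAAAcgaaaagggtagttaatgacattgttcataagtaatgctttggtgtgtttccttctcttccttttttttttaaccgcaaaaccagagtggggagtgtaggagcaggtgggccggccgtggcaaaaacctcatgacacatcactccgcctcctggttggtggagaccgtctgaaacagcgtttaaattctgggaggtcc
Sfrp2: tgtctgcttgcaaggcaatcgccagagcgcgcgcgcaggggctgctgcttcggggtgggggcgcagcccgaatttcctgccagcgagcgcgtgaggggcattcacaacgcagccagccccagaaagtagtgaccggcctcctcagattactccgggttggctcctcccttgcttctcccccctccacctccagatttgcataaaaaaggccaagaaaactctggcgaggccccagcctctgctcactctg
Papln: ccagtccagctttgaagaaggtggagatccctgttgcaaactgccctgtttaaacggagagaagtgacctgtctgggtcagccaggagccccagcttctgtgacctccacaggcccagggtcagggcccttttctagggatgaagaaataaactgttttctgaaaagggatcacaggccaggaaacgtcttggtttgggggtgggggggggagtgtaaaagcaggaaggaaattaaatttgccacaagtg

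Of the genes with no symbol, ENSRNOG00000000158 took the most counts in CA2. It had 947, 583, 700 and 579 CPM in CA2, 322, 367, 278 and 217 CPM in CA1, between 118 and 137 CPM in CA3 and between 74.4 and 91.5 CPM in DG. The 4 subfields did not overlap, in the order CA2, CA1, CA3 and DG, and its ratio was 2.37. It made up 27.0% of the summed CA2 mean of all 57 genes, which was 2599 CPM. The 6 further genes without a symbol at 100 CPM or more in CA2 had ratios from 2.06 to 3.04. The next ratios after the 9 genes above 4 were 3.80, in a gene with 26.9 ± 2.29 CPM (SD, n = 3) in CA2 and 6.92 ± 1.83 CPM (SD, n = 4) in CA1, 3.55, in a gene whose CA2 mean rested on replicate 1, and 3.34, in a gene with 39.3 ± 3.57 CPM (SD, n = 3) in CA2 and 11.8 ± 5.88 CPM (SD, n = 4) in CA1.

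The level of the CA2-enriched genes among CA1, CA3 and DG was not fixed by the rule, and was tested in the 3 comparisons without CA2. All 57 genes were in the test of 17174 genes, and DEGs were taken from edgeR's quasi-likelihood fit at an adjusted p below 0.05. In CA1vsCA3, 17 of the 57 genes were DEGs, 9 higher in CA1 and 8 higher in CA3, where 24.8% of all genes tested were DEGs (12.1% higher in CA1 and 12.7% higher in CA3). The median log2 fold change was -0.0027, beside -0.0003 over all genes. In CA1vsDG, 28 were DEGs, 27 higher in CA1 and 1 higher in DG, where 29.4% of all genes were DEGs (15.1% higher in CA1 and 14.2% higher in DG). The median log2 fold change was 0.93, beside -0.0123 over all genes. In CA3vsDG, 29 were DEGs, 28 higher in CA3 and 1 higher in DG, where 40.2% of all genes were DEGs (20.6% higher in CA3 and 19.7% higher in DG), with a median of 0.88 beside -0.0127. In percent, 29.8% of the CA2-enriched genes were DEGs in CA1vsCA3, 49.1% in CA1vsDG and 50.9% in CA3vsDG. Each of them had at least 3 CPM in CA2, a level that 11547 genes reached. The 17174 genes tested include weaker ones, and the effect of this on the shares was not tested. The last 2 comparisons share the DG libraries.

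Higher levels than in DG were found in both CA1 and CA3 for 23 genes. CA1 alone passed the test against DG for 4 genes and CA3 alone for 5, and 20 of the 57 genes were DEGs in none of the 3 comparisons. These 20 include the 5 genes, described below, whose CA2 mean rested on replicate 1 alone. Their standard errors in CA1vsCA3 were between 0.638 and 1.29. The fit estimated the spread with the CA2 libraries included, and how far this kept the 5 genes from being called was not tested. Genes at 3 counts or fewer in every DG library numbered 6, against 1 for CA3 and 0 for CA1. For these numbers of genes no share over all genes tested was computed, so nothing is read from them. CA1 and CA3 border on CA2 in the section, and the granule cell layer of DG does not. The summed CPM of 4 CA1 markers (Wfs1, Pex5l, Htr5b and Ldb2) was 244 in CA3 replicate 2, between 83.7 and 90.1 in the other CA3 libraries and between 66.2 and 86.8 in DG, and how far tissue of a neighbouring field entered these values was not tested.

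**Figure D3:**
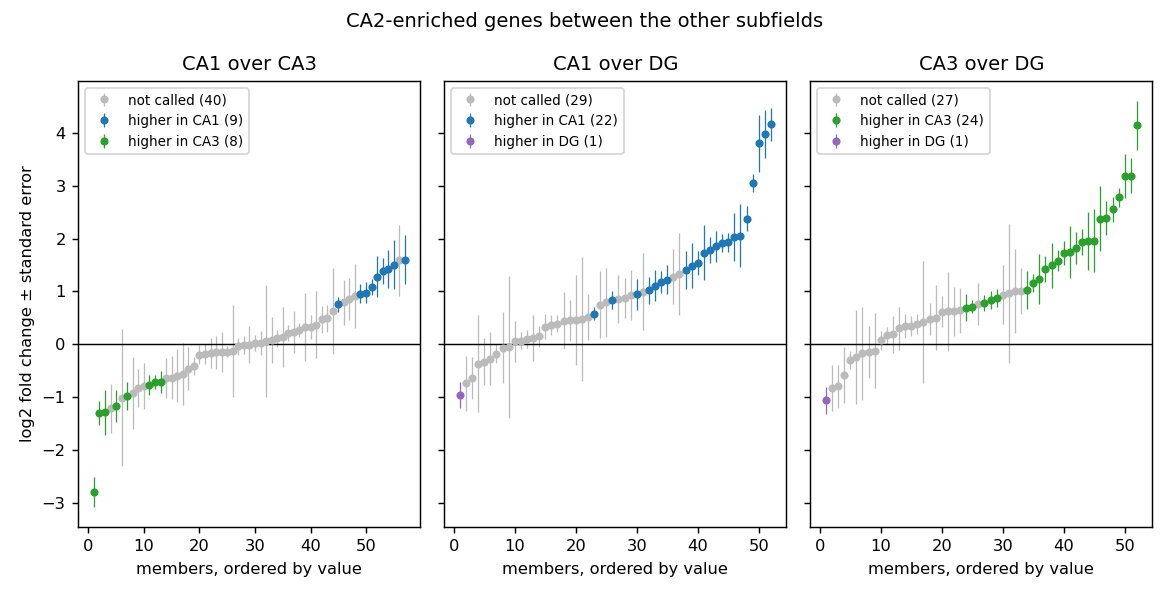
Log2 fold change ± standard error from edgeR for the CA2-enriched genes in CA1vsCA3, CA1vsDG and CA3vsDG, 1 point per gene in the order of its value, with DEGs in the colour of the subfield in which they were higher. The 5 genes with 3 counts or fewer over all DG libraries are not drawn in the comparisons with DG, which is why fewer DEGs appear there than the 28 and 29 counted; in both of these panels 1 DEG lies below 0.

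Cyp1b1 was higher in both CA fields than in DG, the log2 fold change being 3.97 (standard error 0.46, adjusted p = 6.53e-07) in CA1vsDG and 4.14 (standard error 0.46, adjusted p = 2.7e-07) in CA3vsDG. Its CA1vsCA3 value was -0.16 (standard error 0.29, adjusted p = 0.739). Sfrp2 differed in all 3 comparisons, by 1.42 in CA1vsCA3 (standard error 0.37, adjusted p = 0.00622), 3.80 in CA1vsDG (standard error 0.54, adjusted p = 1.07e-05) and 2.38 in CA3vsDG (standard error 0.62, adjusted p = 0.004). Papln was higher than in DG by 2.05 in CA1 and 1.96 in CA3 (both standard error 0.60 and adjusted p = 0.012). Both calls were lost without DG replicate 3 (adjusted p = 0.0656 and 0.063), and the second also in a fit with the replicate block that left out the repeated columns (adjusted p = 0.059). AABR07001734.1 was higher in CA1 than in CA3 by 1.60 (standard error 0.47, adjusted p = 0.0149), a call lost in DESeq2 (adjusted p = 0.0563) and without CA1 replicate 2, CA1 replicate 3 or CA3 replicate 3 (adjusted p = 0.0612, 0.0799 and 0.0582).

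Where DG held 3 counts or fewer in all, no fold is given. Of these genes, AABR07001734.1 passed in CA1vsDG (adjusted p = 4.47e-05) and CA3vsDG (adjusted p = 0.00729), and Rtl3 in both (adjusted p = 0.0134 in each). Gabra6 passed in CA1vsDG (adjusted p = 0.00583) and not in CA3vsDG (adjusted p = 0.164) or CA1vsCA3 (adjusted p = 0.0898), although CA1vsCA3 passed without CA1 replicate 1 (adjusted p = 0.0356) and without CA3 replicate 4 (adjusted p = 0.0472). Spp1 passed in CA3vsDG (adjusted p = 0.00323), and in CA1vsDG (adjusted p = 0.0307) with a call that was lost without CA1 replicate 1 or 2 (adjusted p = 0.0508 and 0.125), without DG replicate 1, 2 or 3 (adjusted p = 0.0521, 0.0621 and 0.0696) and in the block without the repeated columns (adjusted p = 0.106). In that same block fit Rtl3 lost both calls (adjusted p = 0.171 and 0.193) and Gabra6 its own (adjusted p = 0.21). Fam72a and Ccdc3 were DEGs in none of the 3 comparisons. These low genes rest on few counts, and a p that misses the threshold does not show equal levels.

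The smallest p in each comparison fell to genes without a symbol. In CA1vsCA3 the smallest p belonged to a gene higher in CA3, with 7.81 ± 2.11 CPM (SD, n = 4) in CA3 and 1.14 ± 0.370 CPM (SD, n = 4) in CA1, a log2 difference of -2.78 (standard error 0.28, adjusted p = 1.66e-07). Its CA2 values were 20.4, 13.3, 14.7 and 15.9 CPM, so that its levels stepped down from CA2 over CA3 to CA1. Among those higher in CA1 the smallest p was that of ENSRNOG00000000158, at 1.09 (standard error 0.15, adjusted p = 1.28e-05). The 9 genes higher in CA1 had a median of 1.28, and the 8 higher in CA3 had a median of -1.07. In both comparisons with DG the smallest p fell to a gene at 238 ± 20.4 CPM (SD, n = 3) in CA2, 102.8 ± 14.003 CPM (SD, n = 4) in CA1, 79.8 ± 10.6 CPM (SD, n = 4) in CA3 and 12.7 ± 3.05 CPM (SD, n = 3) in DG. It was higher than in DG by 3.05 in CA1 (standard error 0.17, adjusted p = 1.34e-11) and 2.78 in CA3 (standard error 0.17, adjusted p = 5.1e-11).

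Against this direction, 1 gene was higher in DG than in CA1, with 32.9 ± 10.1 CPM (SD, n = 3) in DG and 16.7 ± 4.32 CPM (SD, n = 4) in CA1, a log2 difference of -0.95 (standard error 0.24, adjusted p = 0.00438). Another was higher in DG than in CA3, with 6.69 ± 0.506 CPM (SD, n = 3) in DG and 2.79 ± 0.786 CPM (SD, n = 4) in CA3, a log2 difference of -1.05 (standard error 0.26, adjusted p = 0.00256).

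A neurotrophin long known from CA2, Ntf3 (ENSRNOG00000019716, neurotrophin-3), was the only one of 24 such genes that could be matched and lies outside the 57 genes, because DG held more of it. Only possible subfield markers of the study could be matched, so Ntf3 does not stand for the 24 genes. It had 13.8, 14.5, 12.2 and 9.33 CPM in CA2, between 1.98 and 4.85 CPM in CA1, between 3.35 and 3.59 CPM in CA3 and between 49.2 and 69.1 CPM in DG. It was higher in CA2 than in CA1, at 1.88 on the log2 scale (standard error 0.21, adjusted p = 2.25e-06) and than in CA3, at 1.84 (standard error 0.21, adjusted p = 3.74e-06), beside 8.0% and 4.16% of all genes that were higher in CA2 in these comparisons. Against DG it was lower in CA2, at -2.01 on the log2 scale (standard error 0.18, adjusted p = 2.03e-08).

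Within each replicate number, CA2 was the highest subfield for 57, 55, 53 and 53 of the 57 genes in replicates 1 to 4. It was at least 2 times each other subfield for 53, 35, 41 and 39 of them. The median log2 ratio of CA2 over CA1 was 2.11, 1.36, 1.32 and 1.54 in replicates 1 to 4, over CA3 1.87, 1.42, 1.45 and 1.30, and over DG 2.58, 1.99, 2.09 and 2.19. The values of replicates 2 and 4 set the same repeated CA2 and DG samples against the CA1 and CA3 libraries of 2 rats, so that they are not independent and 1 of them may join different rats. Replicate 1 showed the widest gap. Its libraries departed from the subfield means in like ways in all 4 subfields, with correlations of 0.613 to 0.680 over 9264 genes. Within the other numbers the highest such correlation was 0.450. CA2 replicate 1 was the highest CA2 library for 35 of the 57 genes (61.4%), and with the repeated pair as 1 sample for 38. The share was 33.9% over the 11547 genes with a CA2 mean of at least 3 CPM. CA1 replicate 1 was the lowest CA1 library for 27 genes (47.4%, beside 26.8% of those 11547 genes) and the highest for 2 (3.51%, beside 30.1%). It was also the lowest CA1 library for 6 of the 9 genes with a symbol. The rule chose genes high in CA2 and low in CA1, which favours such libraries, so nothing is read from these differences.

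Among the CA2 libraries, the summed CPM of the CA1 markers was lowest in replicate 1. It was 153 in CA2 replicate 1, 339.7 in replicate 2, 238 in replicate 3 and 362 in replicate 4, and between 1447 and 1588 in the CA1 libraries. Of the 4, Wfs1 had 65.9 CPM in CA2 replicate 1 and between 105 and 168 CPM in the other CA2 libraries, and Htr5b had 8.45 CPM and between 14.9 and 20.9 CPM. Pex5l had 56.5 CPM and between 99.0 and 138 CPM, whereas Ldb2, at 21.9 CPM, was lowest not there but in replicate 3, at 18.7 CPM. The 5 CA3 markers (Gjd2, Fxyd7, Cyp26b1, Fermt1 and Vgll3) summed to between 11.8 and 23.4 CPM in CA2 and between 132 and 159 CPM in CA3. The 5 DG markers (Prox1, Rfx3, Trpc6, Fam163b and Grm2) summed to 54.9, 79.1, 59.8 and 85.5 CPM in CA2 replicates 1 to 4. In the DG libraries the sums were between 1220 and 1455 CPM. Replicate 1 thus also had the lowest sum of DG markers and the highest of CA3 markers among the CA2 libraries. Papln and Ccdc3 were lowest in replicate 1 among the CA2 libraries, at 11.9 and 3.07 CPM. The CA2 library with the lowest summed CPM of CA1 markers was also the one with the highest median of the CA2-enriched genes. The rule used the values of these genes, and the part of CA1 tissue in this result was not tested. No marker list for interneurons, glia, vessels or choroid plexus could be matched, and those cell types were not analysed here.

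**Figure D4:**
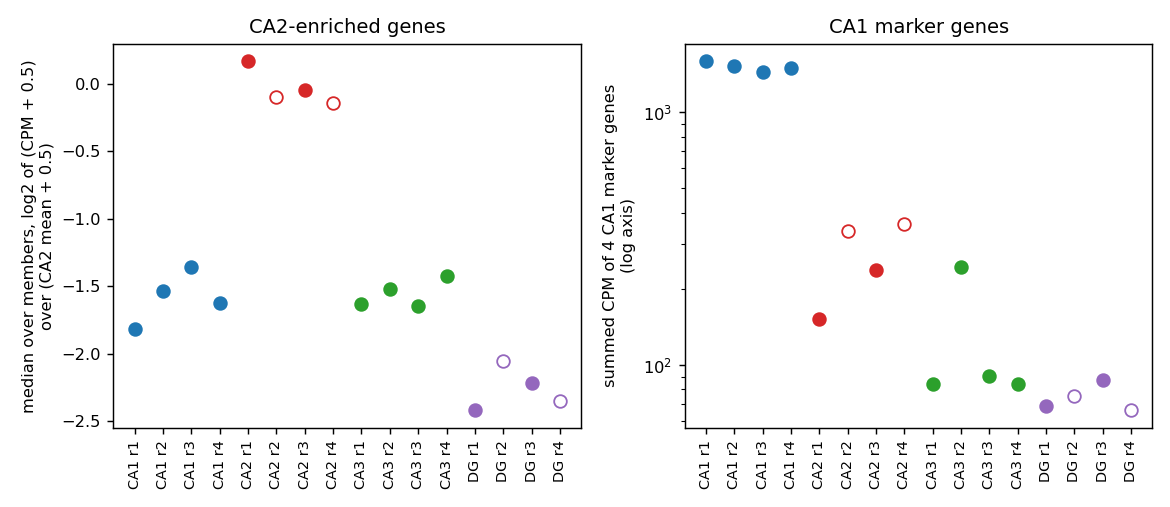
Left, the median over the 57 CA2-enriched genes of the log2 ratio of (CPM + 0.5) in a library to (CA2 mean + 0.5), and right, the summed CPM of 4 CA1 markers on a log axis, 1 point per library with open points for the repeated pairs. The medians lie between -0.14 and 0.17 in CA2, between -1.82 and -1.36 in CA1, between -1.64 and -1.43 in CA3 and between -2.42 and -2.06 in DG, and CA2 replicate 1 has the highest left value and the lowest right value of the CA2 libraries.

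In 5 genes, none with a symbol, the CA2 mean rested on replicate 1 alone, which was at least 3 times each other CA2 library. These had between 11.1 and 15.0 CPM in CA2 replicate 1 and between 0 and 2.05 CPM in the other CA2 libraries. The CA1, CA3 and DG libraries of replicate 1 reached at most 2.43 CPM for them. One of them, ENSRNOG00000033220, had 12.3, 0.89, 1.25 and 0.68 CPM in CA2, values of 0 to 1.05 CPM elsewhere and a ratio of 6.83, the only one above 4 in a gene without a symbol. Over all 11547 genes with a CA2 mean of at least 3 CPM, 11 (0.0953%) showed this for CA2 replicate 1, and no CA2-enriched gene did so for another CA2 library. A high value in 1 CA2 library itself helps a gene to meet the rule, so nothing is read from this difference. Without these 5 genes 52 remained. Without CA2 replicate 1 the rule gave 47 genes, of which 44 were among the 57, and Spp1 was among the 13 lost.

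**Figure D5:**
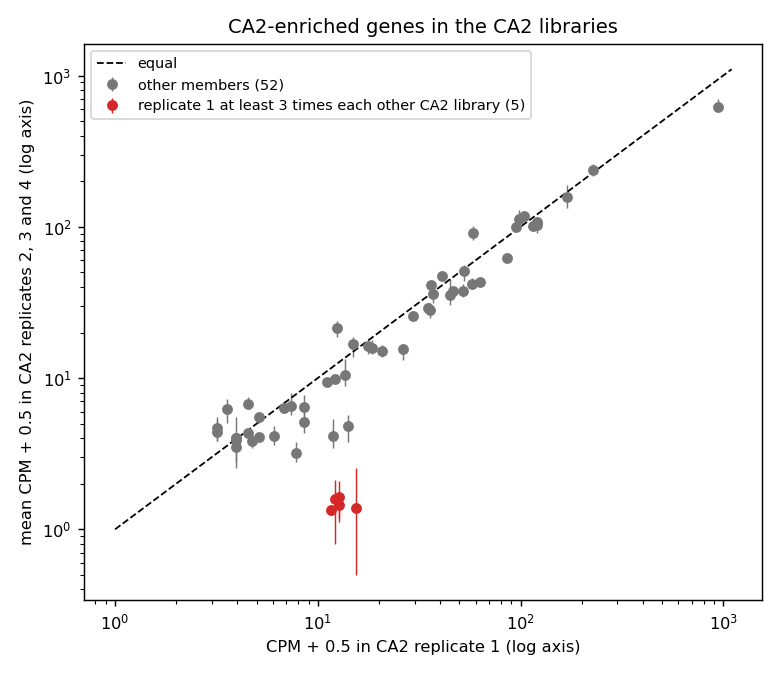
CPM + 0.5 in CA2 replicate 1 (horizontal) against the mean CPM + 0.5 in CA2 replicates 2, 3 and 4 (vertical, bars from the lowest to the highest of the 3), both on log axes, 1 point per CA2-enriched gene. The 5 genes in red, at 11.1 to 15.0 CPM in replicate 1, lie far below the line of equal values, and the other 52 lie closer to it.

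The coefficient of variation of the CA2-enriched genes over the CA2 samples had a median of 15.5%, beside 12.1% for all genes with a CA2 mean of at least 3 CPM, and ran from 2.94% to 153%. Counts summed over the 4 CA2 columns were 66 for the lowest gene and had a median of 320. In rounds that left out 1 library at a time, 37 genes met the rule every time and 20 failed it at least once. Spp1 was the only one of these 20 with a symbol. A round that left out 1 column of a repeated pair kept its copy, so it took away no independent sample.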

How the data were processed

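RNA of laser-captured CA1, CA2, CA3 and DG layers was made by the authors into stranded total RNA libraries and sequenced in pairs, and reads were aligned with STAR to the rat genome Rnor6. The deposited counts are whole numbers of reads per Ensembl gene in 16 columns, without normalization. The counting program and its use of strand are not given in the sources used here. The 6 further deposited tables hold the authors' DESeq2 fold changes and p-values and were not used. Columns were matched to samples by name.

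CPM was computed as the rule states, from sums without 2 identifiers. The repeated CA2 and DG columns were summed, which left 14 libraries. Genes with more than 10 counts in all were tested with edgeR 4.0.16 (R 4.3.3, limma 3.58.1) by quasi-likelihood F-tests with TMM normalization, 1 coefficient per subfield, no term for the rat and Benjamini-Hochberg adjustment over all 17174 genes tested, and DEGs were called at an adjusted p below 0.05. Standard errors were obtained as the log2 fold change divided by the root of F, without sign. The procedure was tested on simulated counts first. DESeq2 1.42.0, other normalizations and filters, fits to 2 subfields, the replicate block and leaving out each library in turn were the alternatives. Tables and plots used Python 3.11.15, numpy 2.4.6, pandas 2.3.3, scipy 1.17.1 and matplotlib 3.10.9. Outlying libraries of CA1 and CA3 were sought with Dixon's ratio.

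The members, the lists of other genes and the tests were chosen with earlier results of these data known. Genes were named when they were in the study's list for CA2, among the 12 highest ratios or the 8 highest CA2 means, or among the 3 smallest p in each direction of a comparison. Only 2 identifiers without a symbol are printed, and 1 listed CA1 marker is not reported here. Symbols came from 288 identifiers that the study's list of possible subfield markers pairs with a name, and the RefSeq table held none of the identifiers. That list was drawn from these same samples, so other genes of the lists could not be matched.

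The labels give the 4 subfields of a replicate number a common code, which was taken here to mark the rat. Deviations from the subfield means correlated with a median of 0.261 between libraries of the same number (24 pairs, -0.132 to 0.680, across 9264 genes) and -0.0988 between different numbers (72 pairs). Deviations within a subfield sum to 0, so a positive value within numbers brings a negative one between them, and the gap is partly built in. The repeated columns were kept in, and the rat of a repeated pair is not known. The block was therefore fitted with all 16 columns and again without the repeated columns.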

Additional observations from a re-analysis of the deposited data

Results flagged for a closer look

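Dixon's ratio was computed over 40 groups of 4 libraries, each holding 1 gene in CA1 or in CA3. The genes were the CA2-enriched genes with a symbol and those named for the highest ratios or the highest CA2 means. In 2 groups a library lay far from the other 3 at the 95% critical value of the ratio, and chance gives about 1 in 20. ENSRNOG00000000158 had 117.6 CPM in CA3 replicate 4 and between 135 and 137 CPM in the other CA3 libraries, a ratio of 0.922. Cyp1b1 had 15.6 CPM in CA3 replicate 1 and between 28.7 and 31.3 CPM in the other CA3 libraries, a ratio of 0.839. The groups of CA2 and DG, with 3 samples each, were not tested in this way.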

How the results depend on the processing

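With other limits, the rule gave 30 genes at a CA2 mean of at least 10 CPM, 142 at a ratio of 1.5 and 9 at a ratio of 4, since fewer or more genes pass by construction. The other scalings gave between 43 genes (sums with the 2 identifiers, 42 shared with the 57) and 58 (repeated pairs summed, 56 shared). Leaving out 1 library at a time, which for a repeated pair keeps its copy, gave between 47 and 60 genes. The same rounds gave between 13 and 18 DEGs among the 57 genes in CA1vsCA3, between 25 and 29 in CA1vsDG and between 25 and 29 in CA3vsDG, and Ntf3 kept its 1 call in each CA2 comparison. With the replicate block the numbers were 21, 30 and 32 with 16 columns, and 21, 24 and 26 without the repeated columns, so that pairing by rat moved no count by more than 1.5 times. Fits with DESeq2 gave 16, 28 and 28. For the genes described one by one, 1838 values kept their side of the threshold over all alternatives, 19 lost it and 13 gained it. No value that passed the threshold in the main or the alternative fit changed sign, while some values near 0 that passed in neither did, among them those of Papln and Rtl3 in CA1vsCA3 when a CA1 library was left out. Fam72a, Gabra6, Rtl3, Ccdc3 and Spp1 rest on few counts per library, and depth limits what can be called for them.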
